A study of Mus musculus with 6 samples.

Results

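The genes described here are the receptors and signal carriers through which cytokines of the IL-6 family, together with IL-33 and IL-1, act on cells of the heart. They were taken by symbol from the 54532 genes of the count table, and all 10 were found and passed the low-count filter. They are the gp130 family receptors Il6ra, Il6st, Osmr, Lifr and Il11ra1, the signal carrier Stat3 and its feedback inhibitor Socs3, the cytokine gene Il33, and the receptors Il1rl1 and Il1r1. Left ventricles of 3 TG and 3 NTG male mice were compared 4 weeks after aortic banding (AB), an operation that narrows the aorta and loads the ventricle with pressure, done at 8 to 10 weeks of age. TG mice (genotype HINT2CTG-Myh6Cre) carried human HINT2 under the CAG promoter, silenced by a floxed stop that a Myh6-driven Cre cuts out of cardiomyocytes once tamoxifen activates it. NTG mice are labelled C57BL/6J and had the same operation. Whether NTG mice received tamoxifen or carried Cre is not given in the sources used here, so the transgene, Cre and tamoxifen cannot be told apart as sources of a difference. Every count comes from bulk tissue, in which fewer cells of a type and less RNA per cell cannot be told apart either.

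Most IL-6 family cytokines bind a receptor of their own and then recruit gp130, the shared subunit encoded by Il6st. Bound JAK kinases phosphorylate STAT3, which moves to the nucleus and switches on genes that include Socs3, whose product blocks gp130 in return. IL-33 is stored in the nucleus of stromal and endothelial cells and is released on injury to bind ST2, the product of Il1rl1. ST2 and the IL-1 receptor share the co-receptor encoded by Il1rap and signal through MyD88 to NF-κB. In the pressure-loaded heart, these routes are studied for their part in hypertrophy, fibrosis and cell survival.

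Sequences upstream of the start sites were looked up because several of these genes had lower mean levels in TG. RefSeq (GRCm38.p6) held 15 windows for the 10 genes, each the 250 bases before a start site. Searches on both strands covered TTCNNNGAA and its stricter form TTCCNGGAA, both bound by STAT factors, TGANTCA, bound by AP-1, and an NF-κB motif (GGGA, any base, TTTCC). Every match of the stricter STAT motif is also a match of the first. Only Socs3 held a match, 1 copy of TTCNNNGAA whose first base lies 154 bases before the start site, and 7.02% of the 32851 windows of all genes hold this motif. The other motifs are in 0.913%, 6.75% and 0.356% of all windows and in 0 of the 15. The stretch around the Socs3 match is shown first, with the match in capitals, at chr11:117969481-117969550 on the minus strand. The RefSeq start it precedes is inside the annotated Socs3 locus, and 77 of the 250 bases of its window are exonic in GENCODE, though 0 of the stretch shown. The 50 bases from that start are not found whole in a GENCODE transcript of Socs3. It is followed by the windows of 3 genes whose group difference had an unadjusted p under 0.05 and whose windows hold no exon bases. Where a gene had more than 1 window, the first whose start lies in an annotated transcript is shown. These are Il33 at chr19:29945540-29945789 on the plus strand, before a start inside the locus, Il1r1 at chr1:40224830-40225079 on the plus strand, and Stat3 at chr11:100939541-100939790 on the minus strand, with 0 motif matches and so no capitals.
Socs3 upstream stretch: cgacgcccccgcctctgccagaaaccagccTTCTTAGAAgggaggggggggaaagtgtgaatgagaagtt
Il33 upstream window: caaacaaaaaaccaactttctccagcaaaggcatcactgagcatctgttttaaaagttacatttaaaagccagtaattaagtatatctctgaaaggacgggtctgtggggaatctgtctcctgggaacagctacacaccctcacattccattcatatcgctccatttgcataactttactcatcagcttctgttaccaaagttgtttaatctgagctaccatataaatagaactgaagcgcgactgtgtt
Il1r1 upstream window: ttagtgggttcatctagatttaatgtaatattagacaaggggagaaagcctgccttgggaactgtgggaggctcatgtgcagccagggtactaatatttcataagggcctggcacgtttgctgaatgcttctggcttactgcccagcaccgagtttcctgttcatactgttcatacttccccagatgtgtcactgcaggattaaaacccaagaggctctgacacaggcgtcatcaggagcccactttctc
Stat3 upstream window: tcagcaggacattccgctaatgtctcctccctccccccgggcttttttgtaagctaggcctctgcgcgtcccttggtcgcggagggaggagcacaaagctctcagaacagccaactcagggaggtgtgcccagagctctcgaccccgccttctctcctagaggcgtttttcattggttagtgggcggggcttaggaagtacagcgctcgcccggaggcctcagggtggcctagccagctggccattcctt

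Total counts on genes were between 14863568 and 17581220 per library, so depth differed little. The targeted gene, Hint2, had 12, 545 and 559 counts in the libraries labelled NTG 1, 2 and 3 and 793, 828 and 859 in TG. Reads of the human transgene reach mouse Hint2 only as far as they align there. The library labelled NTG 1 went against the other NTG libraries in this gene, and no label gives a reason. Whether this heart had the NTG genotype cannot be told from the labels. For this reason, edgeR calls among the 10 genes, the pathway lists and Hint2 that removing this library changed are also given without it. The log2 fold change of Hint2 was 1.33 ± 0.86 (SE, edgeR adjusted p = 0.433) with all libraries. Without the library labelled NTG 1 it was 0.77, and edgeR called Hint2 higher in TG (adjusted p = 0.0212). NTG 2 lay at one end of the first principal component, at 55.7 against -36.5 to 29.3 for the others, and held the most RNA of neutrophil markers. The 5 neutrophil markers (S100a8, S100a9, Csf3r, Retnlg and Mmp9) summed to 10.2, 256 and 39.3 CPM (counts scaled to a common library size by TMM) in the libraries labelled NTG 1, 2 and 3 and to between 9.32 and 17.9 CPM in TG. Summed levels of the 5 fibroblast markers were 2155 to 3209 CPM in NTG and 1377 to 1960 CPM in TG, without overlap, and those of the 5 macrophage markers were 281 to 539 CPM and 223 to 315 CPM. Erythroid marker sums were 1310 to 2245 CPM in NTG and 762 to 908 CPM in TG. Cardiomyocyte markers had the highest sums in every library, 11103 to 18996 CPM in NTG and 18090 to 22572 CPM in TG. No marker of these 5 cell types was at 0 in all libraries.

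Of the 10 genes, 9 had a lower fitted level in TG than in NTG, and Il1rl1 alone had a higher one. A gene was called where edgeR's quasi-likelihood test gave an adjusted p under 0.05 (Benjamini-Hochberg, 14774 genes) and the log2 fold change was above 0.5 or below -0.5. By this rule 0 of the 10 were called, and 0% of all genes. At an unadjusted p under 0.05, 4 of the 10 were lower and 0 higher, where 9.76% and 8.83% of all genes were lower and higher. These 4 were Osmr, Stat3, Il1r1 and Il33. DESeq2 called 1 of the 10, Osmr, lower in TG, where it called 2.4% of all genes lower and 1.54% higher. The median log2 fold change of the 10 was -0.29, against -0.0081 over all genes tested. TG libraries all lay below all NTG libraries for Stat3 and Il33, a pattern found in 12.3% of all genes, and for 0 of the 10 did they all lie above, which 11.2% of all genes did. NTG 2 was the highest of the 6 libraries for 8 of the 10, while it was the highest for 27.1% of all genes. The plot of all 10 genes by library shows where this heart lies for each of them.

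**Figure D1:**
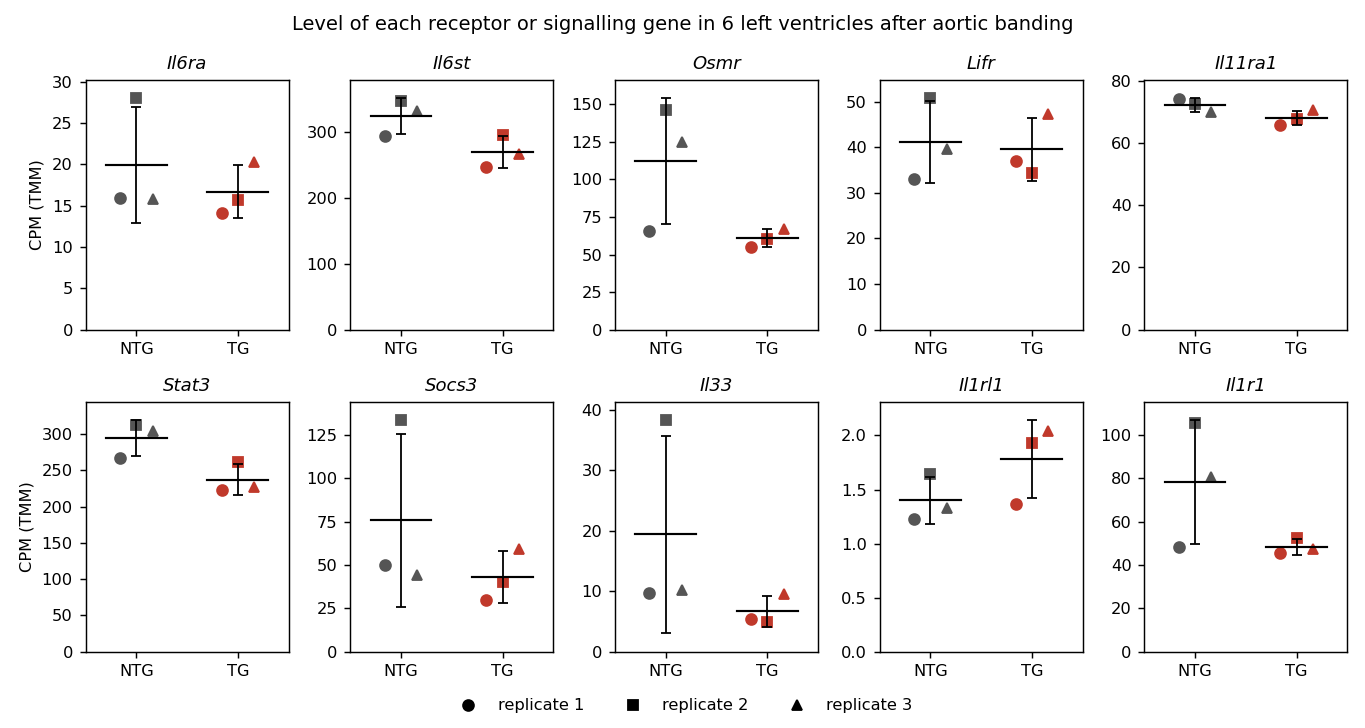
Level of the 10 genes in CPM with TMM scaling (vertical axis from 0) in 3 NTG (grey) and 3 TG (red) left ventricles, where points are libraries, horizontal lines are means and bars are SD. NTG 2 (grey square) is the highest point for 8 genes, and only Stat3 and Il33 have groups that do not overlap.

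Il6st, which encodes gp130, lies at chr13:112464070-112510086 on the plus strand (GRCm38). It measured 294, 347 and 332 CPM in the libraries labelled NTG 1, 2 and 3 and 247, 296 and 268 CPM in TG 1, 2 and 3. TG 2 lay just above the library labelled NTG 1, so the groups overlapped by that pair alone. The fitted log2 fold change was -0.26 ± 0.12 (SE), and edgeR's adjusted p was 0.284. It is the receptor subunit shared by nearly all cytokines of the family, and its level varied little between hearts.

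Osmr, at chr15:6813577-6874969 on the minus strand, encodes the oncostatin M receptor subunit that pairs with gp130. Its levels were 65.7, 146 and 125 CPM in the libraries labelled NTG 1, 2 and 3 and 55.2, 60.0 and 67.0 CPM in TG. NTG 2 and NTG 3 were above all TG libraries, whereas the library labelled NTG 1 was within the TG range. Means were 112 ± 41.7 CPM in NTG and 60.7 ± 5.93 CPM in TG (SD, n = 3 each), a fitted fold of 0.541. The log2 fold change was -0.89 ± 0.28 (SE), with an adjusted p of 0.207 in edgeR and 0.0325 in DESeq2, both by Benjamini-Hochberg. Without the library labelled NTG 1 it was -1.16 and was called by edgeR (adjusted p = 0.0149). Without NTG 2 it was -0.65 (edgeR adjusted p = 0.482), and DESeq2 then lost its call as well (adjusted p = 0.314). Leaving out any library other than the one labelled NTG 1 ended the DESeq2 call.

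Lifr encodes the other gp130 partner, which serves leukaemia inhibitory factor and cardiotrophin-1, and lies at chr15:7090614-7197489 on the plus strand, the same chromosome as Osmr. It stood at 33.0, 50.7 and 39.5 CPM in the libraries labelled NTG 1, 2 and 3 and at 37.0, 34.3 and 47.2 CPM in TG. The groups overlapped throughout, and the log2 fold change was -0.058 ± 0.18 (SE, edgeR adjusted p = 0.883). Its sign turned to 0.12 without NTG 2 and to 0.03 without TG 2. Both gp130 partners could be set against each other inside each library, where scaling has no part. The ratio of Osmr to Lifr, in counts per gene length, was 1.77, 2.56 and 2.81 in the libraries labelled NTG 1, 2 and 3. In TG it was 1.33, 1.56 and 1.26. All TG ratios were below all NTG ratios, with a log2 difference of -0.76. The exact permutation test (two-sided) gave p = 0.1, the smallest that 3 against 3 allows, and 0.267 after Benjamini-Hochberg adjustment over the 8 ratios compared. With each library left out in turn, the difference lay between -0.96 and -0.63.

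Il6ra and Il11ra1 encode the subunits that bind IL-6 and IL-11 before gp130 joins. Il6ra (chr3:89864059-89913196, minus strand) had 15.9, 28.0 and 15.9 CPM in the libraries labelled NTG 1, 2 and 3 and 14.1, 15.6 and 20.3 CPM in TG. Outside NTG 2 the NTG libraries lay inside the TG range, and the log2 fold change of -0.26 ± 0.25 (SE, edgeR adjusted p = 0.603) turned to 0.072 without NTG 2. Il11ra1 (chr4:41699989-41769474, plus strand) had 74.3, 72.5 and 70.0 CPM in NTG and 65.8, 67.9 and 70.6 CPM in TG. Its log2 fold change was -0.085 ± 0.081 (SE, edgeR adjusted p = 0.584), the narrowest spread of the 10. Its value is less certain than the others, since 29.1% of its 100-base stretches recur in the copies Gm13305 and Il11ra2, and reads shared between copies may have been split or left out. Exons of Il11ra1 also overlap Ccl27a on the opposite strand, those of Il6ra the antisense gene Gm42809 and those of Stat3 the gene Stat5a, and the strand setting of the counting is not given in the sources used here. The ratios of Il6ra, Il11ra1, Lifr and Osmr to Il6st overlapped between groups, with exact permutation p of 0.9, 0.2, 0.4 and 0.3.

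Stat3 (chr11:100885098-100939540, minus strand), which carries the signal to the nucleus, was at 266, 313 and 304 CPM in the libraries labelled NTG 1, 2 and 3 and at 223, 262 and 226 CPM in TG. All 3 TG libraries were below all NTG libraries, although TG 2 and the library labelled NTG 1 lay close together. The means were 294 ± 24.4 CPM and 237 ± 21.5 CPM (SD, n = 3 each), a fitted fold of 0.805. The log2 fold change was -0.31 ± 0.12 (SE), with an unadjusted p of 0.0285 and an edgeR adjusted p of 0.227. It stayed between -0.39 and -0.27 with each library left out, so no single heart set its direction.

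Socs3 (chr11:117966079-117970047, minus strand) encodes the inhibitor that STAT3 induces and that binds gp130. It was measured at 49.9, 133 and 44.2 CPM in the libraries labelled NTG 1, 2 and 3 and at 29.7, 40.1 and 59.3 CPM in TG. Only NTG 2 was above the highest TG library, and the other NTG libraries were within the TG range. The log2 fold change was -0.82 ± 0.47 (SE, edgeR adjusted p = 0.383), and it was -0.13 without NTG 2. The ratio of Socs3 to Stat3, in counts per gene length, was 0.617, 1.41 and 0.480 in the libraries labelled NTG 1, 2 and 3. In TG it was 0.440, 0.505 and 0.863, with an exact permutation p of 0.6. NTG 2, which held the most Socs3 RNA, was also the library with 256 CPM of neutrophil markers, and the part of those cells in its Socs3 level was not tested.

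Il33 (chr19:29925114-29960718, plus strand) encodes the alarmin itself. It had 9.76, 38.2 and 10.2 CPM in the libraries labelled NTG 1, 2 and 3 and 5.41, 5.00 and 9.63 CPM in TG. The groups did not overlap, but TG 3 and the library labelled NTG 1 were nearly level, and NTG 2 alone lay far from the rest. The log2 fold change was -1.54 ± 0.60 (SE), with an unadjusted p of 0.0395 and an edgeR adjusted p of 0.247. Without NTG 2 it was -0.58, with an edgeR adjusted p of 0.515. Fibroblast marker sums were also lower in each TG library than in each NTG library, and their part in the Il33 level was not tested.

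Il1rl1 (chr1:40429570-40465415, plus strand), which encodes the IL-33 receptor ST2, was the least abundant of the 10, with 18 to 34 counts per library. In CPM it had 1.23, 1.65 and 1.33 in the libraries labelled NTG 1, 2 and 3 and 1.37, 1.93 and 2.04 in TG. The ranges overlapped, and the log2 fold change of 0.34 ± 0.30 (SE) had an edgeR adjusted p of 0.552. It was positive with each library left out, between 0.24 and 0.49.

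Il1r1 (chr1:40225080-40317257, plus strand) lies in the same receptor gene cluster as Il1rl1 and encodes the receptor for IL-1α and IL-1β. Its levels were 48.4, 105 and 80.5 CPM in the libraries labelled NTG 1, 2 and 3 and 45.4, 52.3 and 47.5 CPM in TG. As with Osmr, NTG 2 and NTG 3 were above all TG libraries and the library labelled NTG 1 was inside their range. The log2 fold change was -0.69 ± 0.26 (SE), with an unadjusted p of 0.0314, an edgeR adjusted p of 0.230 and a DESeq2 adjusted p of 0.101. Without the library labelled NTG 1 it was -0.94 and was called by edgeR (adjusted p = 0.0177), and without NTG 2 it was -0.42 (edgeR adjusted p = 0.520).

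Ratios within a library set the IL-33 and IL-1 arms side by side. The ratios of Il1rl1 to Il1r1, in counts per gene length, were 0.0234, 0.0144 and 0.0153 in the libraries labelled NTG 1, 2 and 3. In TG they were 0.0279, 0.0341 and 0.0396. All TG ratios were above all NTG ratios, with a log2 difference of 0.96. For Il1rl1 to Il33, also per gene length, the ratios were 0.0527, 0.0180 and 0.0547 in NTG and 0.106, 0.162 and 0.0886 in TG. These again did not overlap, with a log2 difference of 1.62. Both had the smallest exact permutation p that the design allows, 0.1, and 0.267 after adjustment over the 8 ratios. Their denominators are Il1r1 and Il33, the genes with the lower means in TG, while the numerator rests on few counts.

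**Figure D2:**
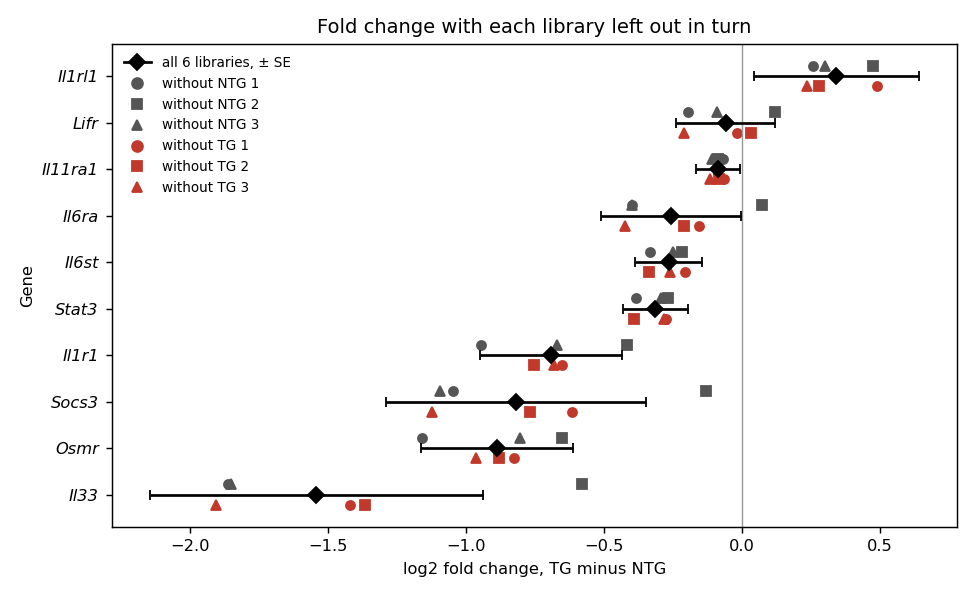
Fitted log2 fold change of TG minus NTG (horizontal axis, 0 marks no difference) for the 10 genes, with diamonds and bars for all 6 libraries ± SE and small points for the fit with 1 library left out. The grey square (without NTG 2) is the point nearest to or beyond 0 for Il33, Osmr, Socs3 and Il1r1, and it crosses 0 for Lifr and Il6ra.

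Leaving out the library labelled NTG 1 moved the log2 fold change of 8 of the 10 genes away from 0, Il11ra1 and Il1rl1 being the exceptions, with 5 of the 10 lower at an unadjusted p under 0.05, as were 13.3% of all genes. Of the 10, edgeR then called 2 lower, Osmr and Il1r1, where it called 2.85% of all genes lower. Leaving out NTG 2 brought 8 of the 10 nearer to 0, Il1rl1 and Lifr being the exceptions, with 0 of the 10 at an unadjusted p under 0.05 and a median of -0.17, where 5.37% of all genes were lower at that p. The library labelled NTG 1 was inside the TG range for 5 of the 10 genes, above it for 3 and below it for 2.

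Per kilobase of gene length, which allows levels to be compared between genes, Stat3 and Il6st led the 10. In NTG the mean levels were 30.9 CPM per kilobase for Stat3, 29.2 for Il6st, 26.2 for Socs3 and 16.2 for Il11ra1. Then came Il1r1 at 12.3, Osmr at 9.27, Il33 at 6.72, Lifr at 3.81, Il6ra at 2.30 and Il1rl1 at 0.203 CPM per kilobase. The places of Socs3 and Il33 rest on NTG 2, where they had 46.1 and 13.2 CPM per kilobase. In the libraries labelled NTG 1 and 3, Socs3 had 17.3 and 15.3 CPM per kilobase, level with Il11ra1 at 16.6 and 15.7, and Il33 had 3.38 and 3.53, level with Lifr at 3.07 and 3.67. In NTG, Il1rl1 was the only one whose libraries did not overlap those of the gene before it in the order. The TG order placed Il11ra1 (15.2 CPM per kilobase) before Socs3 (14.9) and Lifr (3.67) before Il33 (2.31), and in each of these pairs the libraries overlapped. TG libraries were separate between Il6st and Il11ra1, between Socs3 and Il1r1, between Il1r1 (7.60 CPM per kilobase) and Osmr (5.01), between Osmr and Lifr, and between Il6ra and Il1rl1. The shared subunit was thus more abundant per length than each of its 4 partners in both groups.

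**Figure D3:**
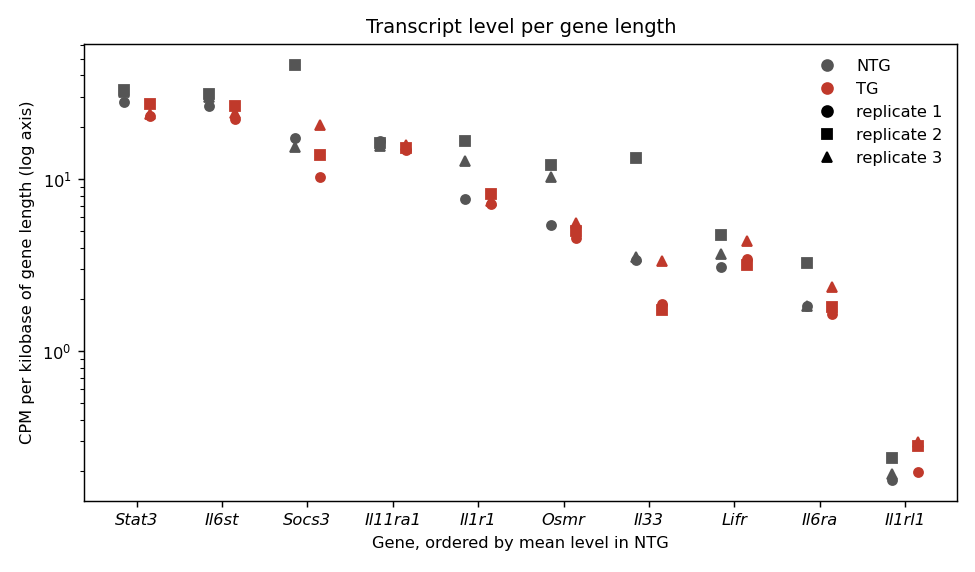
Level of the 10 genes in CPM per kilobase of gene length (vertical log axis), ordered by their mean in NTG, with 1 point for each of the 3 NTG (grey) and 3 TG (red) libraries. Stat3 and Il6st sit near the top in both groups and Il1rl1 lies apart at the bottom, at means of 0.203 and 0.258.

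The pattern of Osmr, the gene of the 10 with the smallest unadjusted p, was compared with that of every gene tested by the root mean square difference of centred log2 CPM over the 6 libraries. The 5 closest genes were Tspan4, Apbb1ip, St3gal1, Il17ra and Myo7a, at 0.114 to 0.132. Among the 10, Il1r1 was nearest, at 0.143 and in place 10 of all genes, and Stat3 followed at 0.391 in place 1466.

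The other genes of the pathways were read from 10 lists. Of 117 genes listed, 98 were tested, and edgeR called 0 of them in either direction. At an unadjusted p under 0.05, 18 were lower in TG and 5 higher, where 9.76% and 8.83% of all genes were. DESeq2 called 8 lower and 0 higher, against 2.4% and 1.54% of all genes. Without the library labelled NTG 1, edgeR called 8 of 99 pathway genes, against 404 higher and 432 lower of 15136 genes. With each library left out in turn, DESeq2 called 2 to 19. Counts at an unadjusted p under 0.05 also depended on NTG 2, as given for some lists below.

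Among the ligands and soluble cofactors of the IL-6 family, 8 of 11 were tested, of which 6 had a lower and 2 a higher fitted level in TG. At an unadjusted p under 0.05, 2 were lower and 0 higher, where 9.76% and 8.83% of all genes were. Without NTG 2, 0 were lower at that p, against 5.37% of all genes. Il11, whose product acts through Il11ra1, had 0.887, 2.18 and 1.21 CPM in NTG and 0.649, 0.682 and 0.123 CPM in TG, with a log2 fold change of -1.56 ± 0.59 (SE, edgeR adjusted p = 0.228). Il6 itself, named here after its values were seen, had 31, 490 and 67 counts in the libraries labelled NTG 1, 2 and 3 and 18, 21 and 101 in TG. Its log2 fold change of -1.88 (edgeR adjusted p = 0.382) was -0.05 without NTG 2 and -3.11 without TG 3. The median of the list was likewise -0.73 with all libraries and -0.03 without NTG 2.

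**Figure D4:**
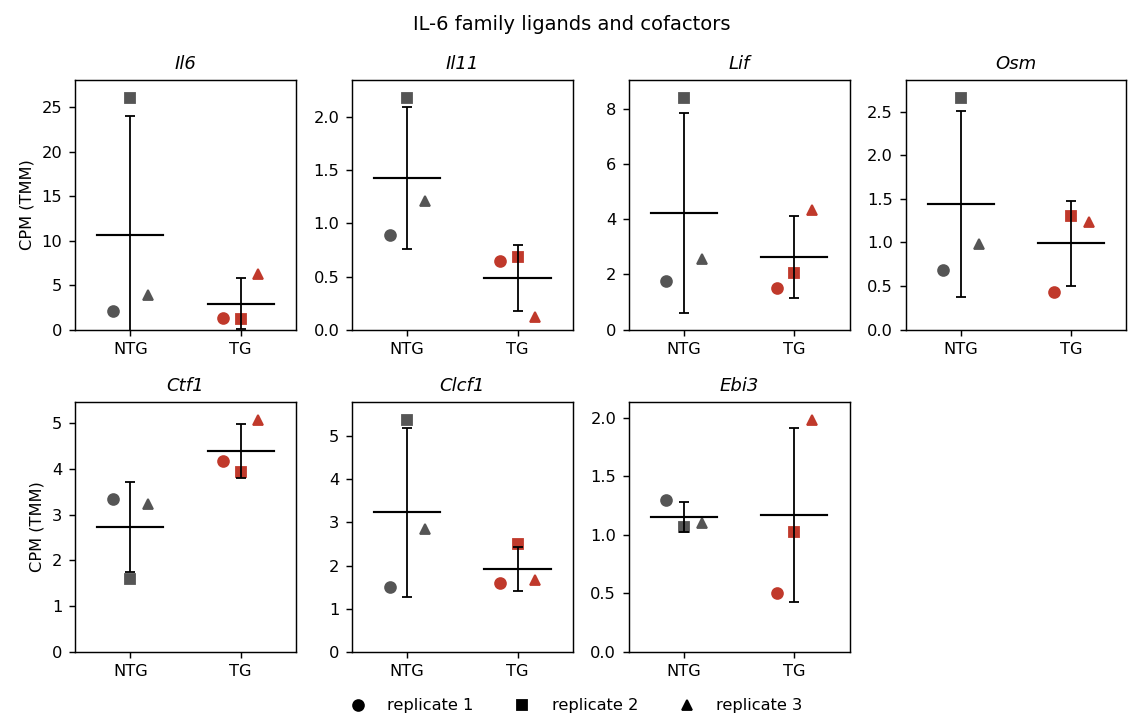
Level in CPM (vertical axis from 0) of 7 of the 8 tested ligands and cofactors of the IL-6 family, with points for libraries, lines for means and bars for SD, the Il6 bar in NTG being cut at 0. NTG 2 (grey square) is far above the other libraries for Il6 (490 counts), and all TG libraries lie below all NTG libraries for Il11.

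The list of genes linked to STAT3 had the most members at a low p. Of 21 tested, 19 had a lower and 2 a higher fitted level in TG, of which 9 and 1 had p under 0.05 before adjustment, against 9.76% and 8.83% of all genes. Without NTG 2, 6 were lower at that p, against 5.37% of all genes. The median log2 fold change was -0.84 with all libraries and -0.37 without NTG 2. DESeq2 called 7 of the 21 lower, namely Cebpd, Fgl2, Hif1a, Il4ra, Mt1, Serpina3n and Timp1, where it called 2.4% of all genes lower. Without the library labelled NTG 1, edgeR called 6 lower, and 2.85% of all genes. Serpina3n, an acute phase protease inhibitor, had 135, 1474 and 481 CPM in the libraries labelled NTG 1, 2 and 3 and 45.7, 56.3 and 40.1 CPM in TG. Its log2 fold change was -3.88 ± 0.83 (SE) with all libraries, and -2.70 without NTG 2. Hif1a, the oxygen-sensing transcription factor, had 130, 212 and 132 CPM in NTG and 86.0, 98.8 and 80.1 CPM in TG, with a log2 fold change of -0.84 ± 0.20 (SE). Both genes had an edgeR adjusted p of 0.196, and in both the groups did not overlap. Many genes of this list answer to other signals as well, and the list was written from general knowledge rather than from STAT3 binding in these hearts. The neutrophil marker sum was highest in NTG 2, at 256 CPM. Fibroblast marker sums were lower in each TG library than in each NTG library. The part of these cells in the levels of the list was not tested.

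Of the JAK kinases and other STATs, 9 were tested, and 1 was higher with a p under 0.05 before adjustment, as were 8.83% of all genes. Of 15 genes that restrain gp130 signalling, 2 were lower and 2 higher at that p, where 9.76% and 8.83% of all genes were. Without NTG 2, 1 was lower, against 5.37% of all genes, and 0 were higher. Socs2 was at 67.7, 69.6 and 72.9 CPM in NTG and at 57.0, 62.3 and 54.1 CPM in TG, with a log2 fold change of -0.28 ± 0.09 (SE, edgeR adjusted p = 0.207). Ptpn1, a phosphatase that acts on JAK kinases, had a log2 fold change of -0.43 ± 0.17 (SE, edgeR adjusted p = 0.232), and Cish and Pias4, named after their values were seen, had 0.67 and 0.33. Without NTG 2, Ptpn1 was at -0.22 and Pias4 at 0.22. Cntfr and Il27ra, the only tested genes among the other family receptors, had log2 fold changes of 0.22 and -0.40 and edgeR adjusted p of 0.799 and 0.336. Cntfr ranged from -0.27 without TG 3 to 0.52 without TG 2, and Il27ra was at -0.22 without NTG 2.

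On the IL-1 side, the ligand list showed least. Of 4 ligands tested, 0 had an unadjusted p under 0.05, with a log2 fold change of -0.73 for Il1b and 0.07 for Il18bp, which encodes the IL-18 binding protein. Without NTG 2, Il1b turned to 0.32 and the median of the list from -0.18 to 0.31, and Il18bp turned to -0.01 without TG 3. Of 6 other receptors tested, 2 were lower at an unadjusted p under 0.05, as were 9.76% of all genes. Without NTG 2 this count was 0, against 5.37% of all genes. Il1rap, the co-receptor shared by ST2 and the IL-1 receptor, measured 7.92, 17.9 and 10.99 CPM in the libraries labelled NTG 1, 2 and 3 and 6.35, 7.85 and 5.49 CPM in TG. Its highest TG value was just below the lowest NTG value, and the log2 fold change was -0.91 ± 0.30 (SE, edgeR adjusted p = 0.212). It was -1.14 and called lower by edgeR without the library labelled NTG 1 (adjusted p = 0.0404), and -0.53 without NTG 2. Il1r2, the decoy receptor for IL-1, had 1.43, 5.10 and 1.74 CPM in NTG and 0.288, 0.284 and 1.296 CPM in TG, where the first 2 values rest on 4 and 5 counts, with a log2 fold change of -2.14 ± 0.73 (SE, edgeR adjusted p = 0.216). It was -1.33 without NTG 2 and -3.25 without TG 3. Neutrophils carry Il1r2, and their marker sum was highest in NTG 2 as was Il1r2, a link that was not tested.

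Downstream, 22 genes of the MyD88 pathway were tested and 1 was lower at an unadjusted p under 0.05, as were 9.76% of all genes. This gene was Irak3, a kinase-like inhibitor of the pathway, at -0.69 ± 0.27 (SE, edgeR adjusted p = 0.231). Nfkbiz, an NF-κB cofactor, had a log2 fold change of -1.09 ± 0.47 (SE, edgeR adjusted p = 0.277). Without the library labelled NTG 1, Irak3 was at -0.91 and called lower by edgeR (adjusted p = 0.0456). Without NTG 2, Irak3 was at -0.46 and Nfkbiz at -0.56. The median of this list was -0.05, near that of all genes tested. Among 7 genes of receptor shedding and the inflammasome, Rhbdf2, which brings the sheddase ADAM17 to the cell surface, was at 37.3, 32.0 and 32.6 CPM in NTG and at 47.7, 50.9 and 39.9 CPM in TG, all TG libraries being above. Its log2 fold change was 0.44 ± 0.12 (SE, edgeR adjusted p = 0.196). Adam10, another sheddase, had -0.36 ± 0.15 (SE, edgeR adjusted p = 0.261) and -0.18 without NTG 2. The map of centred levels sets these genes beside the marker sums of each library.

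**Figure D5:**
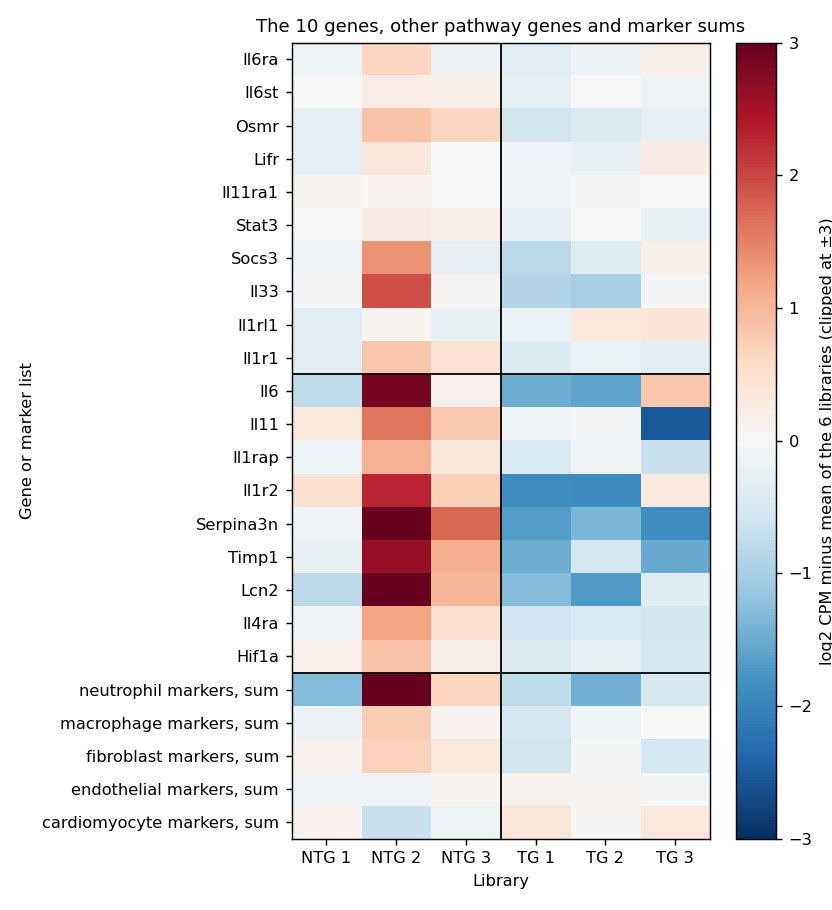
Log2 CPM of each gene or summed marker list (rows) minus its mean over the 6 libraries (columns), from blue (lower) to red (higher) and clipped at 3 in either direction, for the 10 genes, 9 other pathway genes and 5 marker lists. NTG 2 is the reddest column for Il6, Serpina3n and Lcn2 and for neutrophil markers, which reach 256 CPM there.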

How the data were processed

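RNA from 6 left ventricles was sequenced as poly-A selected libraries. The authors counted reads per gene with featureCounts and deposited raw counts without normalization. The submitters' notes name HISAT2, DESeq2 and the human build GRCh38, whereas gene identifiers and positions are mouse: of 54495 genes shared with GENCODE mouse release 21 (GRCm38), 98.3% had identical coordinates. The build of alignment, strand setting and treatment of multiply mapped reads are not given in the sources used here. In the table, 27 gene names had become dates and were restored by identifier. Gene length is the authors' column.

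The fit used edgeR 4.0.16 under R 4.3.3 (TMM, filterByExpr by group, robust quasi-likelihood test, Benjamini-Hochberg over 14774 genes). SE is the log2 fold change divided by the root of F. DESeq2 1.42.0, limma 3.58.1 (voom) and the rest of 17 planned settings were alternatives, and 6 (DESeq2 with each library left out) were added after seeing the data. Permutation tests used scipy 1.17.1. Samples were grouped by their labels. Scripts were tested on simulated data. Libraries are from the hearts of mice labelled as 3 TG and 3 NTG, and p-values measure the spread between them.

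The 10 genes, the lists and the named-gene rule were chosen with earlier results of these data known. The rule named the 10 genes, Hint2, the 2 genes with the smallest unadjusted p of each pathway list, any called gene, and the 5 genes nearest in pattern to the member with the smallest p. Lists and motifs were written from general knowledge. Promoter sequences are from RefSeq (GRCm38.p6), in which all 10 genes matched. Windows lying in exons are not shown. Results of some genes that the rule named are not reported here.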

Additional observations from a re-analysis of the deposited data

How the results depend on the processing

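Of the 10 genes, edgeR called 0, as it did with scaling by upper quartile, RLE or library size, the stricter or no low-count filter, non-robust fitting, voom, the likelihood-ratio test and the replicate block, while DESeq2 called 1 (Osmr). Counts of all genes were less stable. Against 0 higher and 0 lower in edgeR, there were 116 and 116 without a low-count filter, 228 and 355 in DESeq2, 206 and 339 in the likelihood-ratio test, and 84 and 147 with a replicate block. Without a low-count filter 1 of the 10 genes kept an unadjusted p under 0.05. Pathway genes called numbered 8 in DESeq2, 9 in the likelihood-ratio test and 5 with the replicate block. Same-numbered libraries deviated together with r of 0.081, 0.17 and -0.25, and not every library correlated best with its own number, so the numbers were not taken as pairs.

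With each library left out, edgeR called 0 to 404 genes higher, 0 to 432 lower, 0 to 2 of the 10 and 0 to 8 pathway genes, and 0 to 5 of the 10 had an unadjusted p under 0.05. The upper ends came without the library labelled NTG 1. In DESeq2 the ranges were 29 to 896, 67 to 877, 0 to 2, 2 to 19 and 1 to 5. Il6ra lay between -0.42 and 0.072 (DESeq2 -0.42 and 0.075) and Lifr between -0.21 and 0.12 (DESeq2 -0.20 and 0.12), and no other of the 10 reversed. The cause was not tested. With 3 hearts a group the spread between hearts limits each value, and Il1rl1 also rests on only 18 to 34 counts.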

Other observations

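Stat2, which carries interferon signals, was at 38.4, 27.4 and 31.7 CPM in the libraries labelled NTG 1, 2 and 3 and at 31.4, 46.7 and 71.0 CPM in TG, with a log2 fold change of TG minus NTG of 0.62 ± 0.29 (SE, edgeR adjusted p = 0.299) and 0.27 without TG 3. The 5 T cell markers, of which none was at 0 in all libraries, summed to 2.43 to 5.19 CPM in NTG and 2.45 to 8.03 CPM in TG, highest in TG 3, and their part in this level was not tested.

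Of 9 genes of cells that answer to IL-33, 4 were tested and 1 was lower at an unadjusted p under 0.05, as were 9.76% of all genes. Without NTG 2 this count was 0, against 5.37% of all genes. Rora, a transcription factor of innate lymphoid cells that other cells also express, was at 38.6, 53.8 and 45.0 CPM in the libraries labelled NTG 1, 2 and 3 and at 36.9, 38.1 and 32.1 CPM in TG, with a log2 fold change of -0.36 ± 0.14 (SE, edgeR adjusted p = 0.228) and -0.23 without NTG 2. Il2ra, carried by regulatory T cells, had 0.92 ± 0.42 (SE, edgeR adjusted p = 0.281) and 0.42 without TG 3. The 5 mast cell markers summed to 14.7 to 19.0 CPM in NTG and 14.9 to 18.8 CPM in TG, endothelial markers to 1397 to 1626 CPM and 1516 to 1668 CPM, and smooth muscle and pericyte markers to 1124 to 1463 CPM and 1236 to 1493 CPM, with overlap of the sums in each. Of single markers, 3 of 5 endothelial and 2 of 5 smooth muscle and pericyte genes had all TG libraries above all NTG libraries, as did 11.2% of all genes. DESeq2 called Myh11 higher in TG (log2 fold change 0.71, adjusted p = 0.0168), a gene named after its values were seen. The same tool called 2 of 5 fibroblast and 4 of 5 erythroid markers lower, where it called 2.4% of all genes lower and 1.54% higher. Mesothelial sums were 24.3 to 42.0 CPM and 23.4 to 35.1 CPM, and atrial sums 821 to 1403 CPM and 177 to 896 CPM. Most of the atrial sum is Nppa, with a log2 fold change of -1.44, while the other 3 tested atrial markers, Myl7, Myl4 and Sln, had 1.96, 1.19 and 1.85 (edgeR adjusted p of 0.275, 0.589, 0.690 and 0.580).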
